A study of Homo sapiens with 4 samples.

Results

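The long arm of chromosome 13 was described here through its H3K9me3 peaks in U2OS, a widely used cell line from a human osteosarcoma. All peaks on chromosome 13 from 19 Mb on (build hg19) were taken, 13286 in list 1 and 8113 in list 2, which made 21399 of the 591593 peaks on chromosomes 1 to 22 and X. No peak of either list began before 19 Mb. The study had 2 samples precipitated with an Abcam antibody against H3K9me3 and 2 input samples without antibody, all from cross-linked U2OS cells. Their titles add the name KRAB-IDR3-TCF3 without saying what it is. The data were 2 broad peak lists. List 2 is named in the labels of the antibody samples and list 1 in those of the input samples, but peak names in either list read as immunoprecipitations, so neither list was given to a group. The lists are not replicates with a known error, the depth behind them is unknown, and no comparison below carries a test. Spreads over windows describe the chromosome, not the experimental error. The chromosome was selected on its low share of bases covered by peaks in these lists, so that share is given as a description.

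H3K9me3 is laid down by histone methyltransferases such as SUV39H1 and SETDB1 and is bound by HP1 proteins, which compact chromatin and help to keep repeats and silent genes inactive. Peaks of the mark are typically broad, and satellite repeats, clustered zinc finger genes and gene-poor stretches are its usual sites. Chromosome 13 is acrocentric: its short arm holds satellite and ribosomal repeats that the assembly does not resolve, and its long arm is poor in genes. The band 13q21 is one of its large gene deserts and holds the protocadherin genes PCDH9, PCDH17 and PCDH20, which encode cell adhesion proteins of the nervous system. In the RefSeq order of GRCh38.p14, 338 protein-coding genes lie on chromosome 13. Only 15 of them, 3 without a gene name, lie between OLFM4 and MZT1, the flanks of 13q21-q22 by general knowledge, against 198 up to and including OLFM4 and 125 from MZT1 on. Among the 15 are also DIAPH3, a regulator of actin filaments, KLHL1, a neuronal actin-binding protein, and DACH1, a developmental transcription regulator. The gene order is of another build, so no gene was given a peak or a value.

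Chromosome 13 was the least covered autosome in list 2, and its place in list 1 depended on how its span was counted. From its first to its last peak, 37.4% of it was covered in list 1 and 15.4% in list 2, against 46.6% and 26.4% of the other chromosomes together, which was 0.803 and 0.583 times their share. With every stretch of 1 Mb or more that held no peak removed from the spans, the other chromosomes reached 48.5% and 27.4%, and chromosome 13, which has no such stretch in its long arm, was the lowest of the 22 autosomes in both lists. Chromosome 17 came next with 38% in list 1 and 20.3% in list 2. Without that step, chromosomes 17 (36.6%) and 9 (36.7%) lay below it in list 1. Counted from position 1, with the short arm as uncovered bases, chromosome 13 stood at 31.2% and 12.8%, and chromosome 22 lay below it in list 1, at 28.2%. From first to last peak, the X chromosome was lower than chromosome 13, at 24.1% and 9.13%. On the same span, chromosomes 4 and 18, which are also poor in genes, were covered more. They stood at 44.3% and 45.0% in list 1 and at 21% and 23.6% in list 2.

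The low covered share went with narrow peaks, not with few peaks in list 1. There chromosome 13 held 138 peaks per Mb, the highest number of the 23 chromosomes, against 110 per Mb over the others. Chromosome 4 came close, at 135 per Mb, and chromosomes 3 and 18 held 130 and 120. In list 2 chromosome 13 held 84.5 per Mb against 90.1 over the others. List 1 holds weaker peaks, down to a −log10 p of 1.02, against 1.58 in list 2. Of the 13286 list 1 peaks on chromosome 13, 1340 reach the lowest value of list 2. Peaks per Mb were not compared between chromosomes at that limit. The median peak on chromosome 13 was 1583 bp wide in list 1, with quartiles of 749 and 3323 bp, and 1193 bp wide in list 2, with quartiles of 592 and 2233 bp. On the other chromosomes the medians were 1995 bp (869 and 4787 bp) and 1581 bp (764 and 3419 bp). Only X had a lower median width in list 2, and only X and chromosome 19 did in list 1. Peaks of at least 10 kb made up 3.59% of the peaks of chromosome 13 in list 1, against 9.87% elsewhere, and 0.887% in list 2, against 4.56% elsewhere. The authors' fold enrichment of each peak is its signal over the background of the peak caller. Its median in list 1 was 1.59 on chromosome 13 and 1.65 elsewhere. In list 2 the medians were 2.05 and 2.12. The lowest fold that each list holds, 1.44 and 1.90, was shared by 21.6% and 22.1% of the peaks of chromosome 13. The same shares were not taken for the other chromosomes, so they are not shown to be particular to it.

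**Figure D1:**
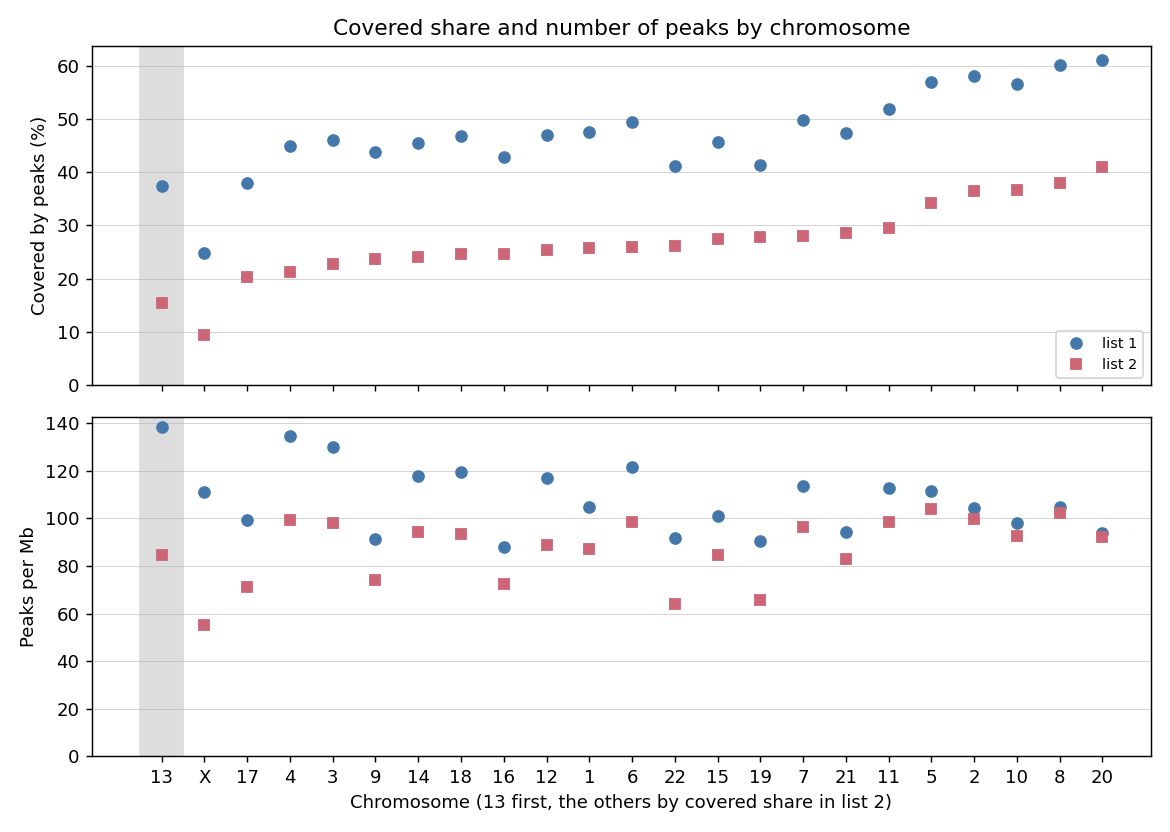
Share of each chromosome covered by peaks in percent, after removal of every peak-free stretch of 1 Mb or more (upper panel), and number of peaks per Mb from the first to the last peak (lower panel). Circles are list 1 and squares list 2. Chromosome 13 is first and shaded. It is lower than every other autosome in the upper panel and has the highest number of list 1 peaks per Mb, 138, in the lower one.

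Windows of 1 Mb showed how the low coverage was spread. Over the 96 full windows of chromosome 13 the covered share in list 1 was lowest at 9.22%, had a median of 36.7% and was highest at 70.5%. In list 2 these values were 3.31%, 13.8% and 58.1%. Windows of the other chromosomes had medians of 48.7% and 24.3%. The spread over windows was also smaller on chromosome 13, with an SD of 10.6 percentage points in list 1 and 8.43 in list 2, against 19.9 and 17.1 elsewhere. The windows elsewhere also hold differences between chromosomes. Chromosome 4 alone had SDs of 13.6 and 10.1, and chromosome 18 had 18.2 and 13.9. The means were 37.4% and 15.4% on chromosome 13, and higher on chromosome 4, at 44.7% and 21.1%. The spread was not scaled to the mean. Of the 96 windows, 80 lay under the median of all windows in both lists, a place held by 46.0% of the 2857 windows of the series that contain a peak. Over that median in both lists lay 10 windows, against 46.1% of all windows. No window of chromosome 13 was covered over 60% in both lists, where 4.97% of all windows were. In list 2, 25 windows were covered under 10%, which is 26.0% of those of chromosome 13 against 14.5% of all windows. A covered share under 10% in both lists was found in 1 window, against 2.98% of all windows. These counts describe the measure by which the chromosome was chosen.

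The gene-poor middle segment, 54 to 73 Mb, was covered less than the segments on either side. With each list taken whole, the gap was wider in list 2. In list 1 its covered share was 34.6%, against 39.2% of the proximal segment (19 to 54 Mb) and 37.3% of the distal segment (73 Mb to the last peak end at 115108817). In list 2 it was 11.1%, against 17.5% and 15.5%. The ratio of middle to proximal was 0.883 in list 1 and 0.637 in list 2, and that of middle to distal was 0.928 and 0.715. Over windows the middle segment had a mean of 34.6% ± 8.43 in list 1 (SD, 19 windows), against 39.2% ± 12.2 in the proximal segment (35 windows) and 37.3% ± 9.99 in the distal one (42 windows). In list 2 the means were 11.1% ± 4.63 in the middle segment, 17.5% ± 7.71 in the proximal and 15.5% ± 9.69 in the distal one. When list 1 was held to the lowest −log10 p that list 2 contains, its ratios of middle to proximal and middle to distal were 0.454 and 0.423. At that limit the gap was wider in list 1. With list 1 taken whole, its differences were smaller than the spread over windows of each segment, and the ranges overlapped in both lists. Windows under 10% in list 2 numbered 9 of 19 in the middle segment, 5 of 35 in the proximal and 11 of 42 in the distal one. Under the median of all windows in both lists lay 18 of 19 windows of the middle segment, 27 of the proximal and 35 of the distal one. The middle segment held no window over that median in both lists, and the others held 5 each.

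The middle segment had the most peaks per Mb in list 1 and the narrowest peaks in both lists. List 1 held 159 peaks per Mb there, against 125 in the proximal and 139 in the distal segment. In list 2 the segments were closer, at 80.5 per Mb in the middle, 90.2 in the proximal and 81.4 in the distal segment. The median width in list 1 was 1457 bp in the middle segment, 1798 bp in the proximal and 1515 bp in the distal one. In list 2 it was 1046 bp, 1309 bp and 1185 bp in the same order. Wide peaks set the middle segment apart more than the median did. It held 35 peaks of at least 10 kb in list 1, which was 1.16% of its peaks, against 5.38% in the proximal and 3.51% in the distal segment. In list 2 it held 1 such peak, against 20 and 51. The widest peak of the middle segment was 25.7 kb in list 1 and 12.1 kb in list 2. Once peaks with gaps under 10 kb were joined, the order of median widths in list 1 turned, with ratios of 2.69 for middle to proximal and 1.36 for middle to distal. Median folds of single peaks were lowest in the middle segment as well, at 1.57 in list 1, against 1.62 and 1.59, and at 2.03 in list 2, against 2.07 and 2.05.

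**Figure D2:**
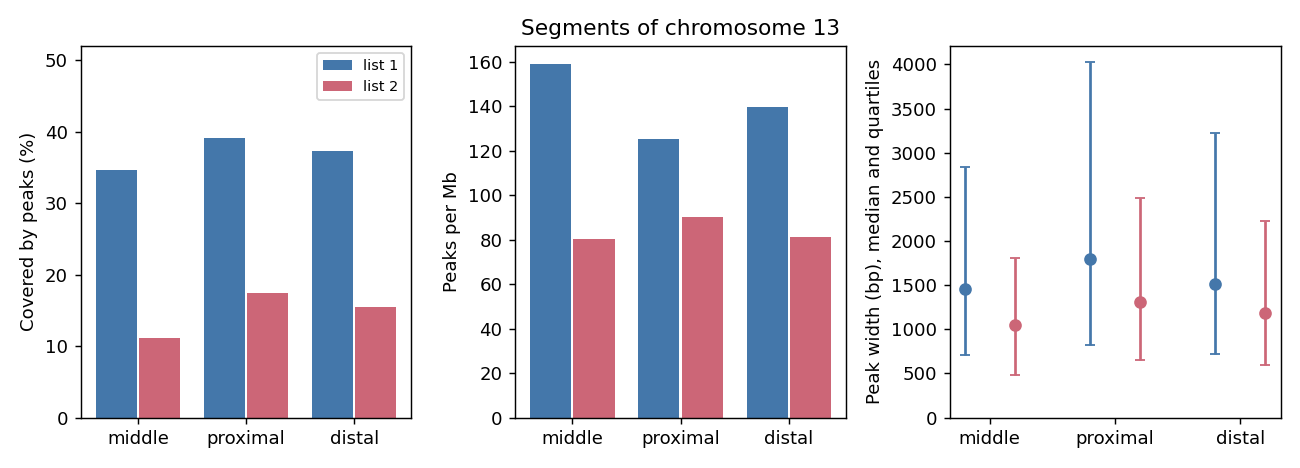
Covered share in percent, peaks per Mb, and peak width in bp (point, median; bar, quartiles) for the middle (54 to 73 Mb), proximal (19 to 54 Mb) and distal (from 73 Mb) segments of chromosome 13, with list 1 in blue and list 2 in red. The middle segment is lowest in covered share and median width in both lists, and highest in peaks per Mb in list 1 at 159.

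The border of the sparse stretch did not fall at 54 Mb. The windows on either side of that border were covered alike in list 1, with 45.6% from 54 Mb and 46.5% before it, and 16.5% and 24.7% in list 2. The 6 windows from 54 to 60 Mb had a mean of 45.0% ± 3.95 in list 1 and 16.8% ± 1.96 in list 2. The 13 windows from 60 to 73 Mb had a mean of 29.8% ± 4.52 and 8.49% ± 2.62, and no window of the first run was as low as the highest of the second in either list. The split at 60 Mb was set after these values had been seen, so their separation is no support for it. With the border moved to 60 Mb, the ratio of middle to proximal was 0.744 in list 1 and 0.489 in list 2. At 73 Mb coverage was somewhat higher, with 32.8% and 10.3% in the window before the border and 35.5% and 15.2% in the window after it.

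Low coverage then came back beyond the middle segment. The 3 windows from 73 to 76 Mb had a mean of 39.2% ± 5.66 in list 1 and 16.6% ± 1.91 in list 2. The 17 windows from 76 to 93 Mb had a mean of 31.3% ± 5.63 and 9.39% ± 2.53, close to the 13 windows from 60 to 73 Mb. By general knowledge this stretch also holds few genes, among them SLITRK1, SLITRK5 and SLITRK6, which encode neuronal membrane proteins. The 19 windows from 93 Mb up to the densest window had a mean of 39.8% ± 9.04 and 17.5% ± 7.23, and the last 3 full windows, which begin with the densest, had 53.2% ± 16.8 and 36.9% ± 18.8. In the proximal segment, the 30 windows from 24 to 54 Mb had a mean of 39.9% ± 8.76 in list 1 and 17.1% ± 4.75 in list 2. These borders, other than those at 54 and 73 Mb, were set once the values of the windows were known.

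**Figure D3:**
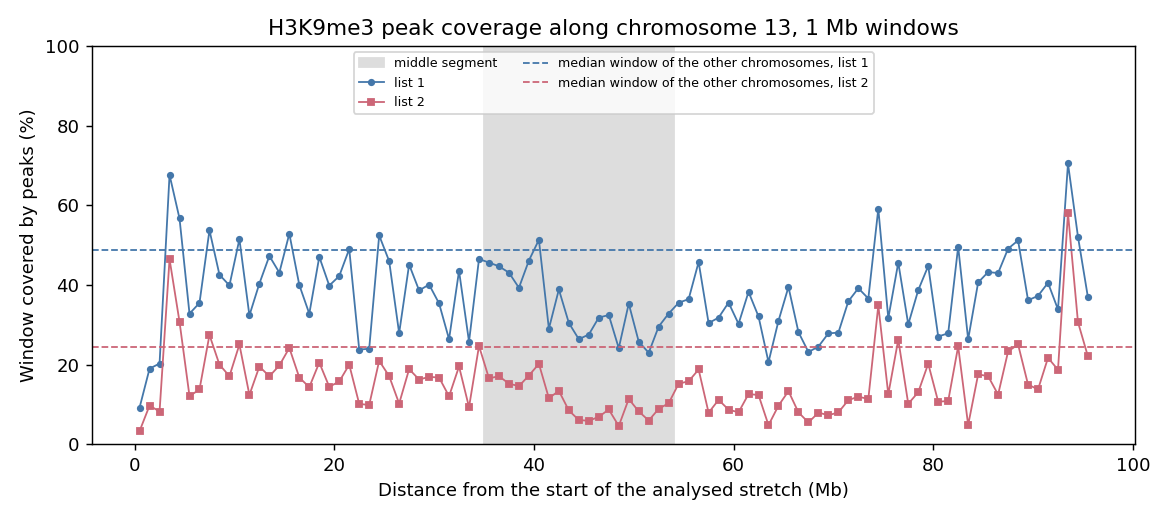
Covered share of each full 1 Mb window of chromosome 13 in percent against its distance in Mb from the start of the analysed stretch, for list 1 (circles) and list 2 (squares). Grey marks the middle segment, and dashed lines give the median window of the other chromosomes, 48.7% in list 1 and 24.3% in list 2. Most windows lie under these lines, and the highest, at 70.5% and 58.1%, lies near the distal end.

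The densest window ran from 112000001 to 113000000 in the last band, 13q34, and was covered 70.5% in list 1 and 58.1% in list 2. General knowledge places SOX1 there, a transcription factor of neural progenitors. Among all windows of the series this one exceeded 86.8% of windows in list 1 and 94.4% in list 2. The next densest lay near the centromere, from 22000001 to 23000000, at 67.6% and 46.5%, a window in which FGF9, a growth factor gene, is placed by general knowledge. It was followed by 93000001 to 94000000 (59.1% and 34.8%), the surroundings of the heparan sulfate proteoglycan genes GPC5 and GPC6, by 23000001 to 24000000 (56.7% and 30.7%) and by 113000001 to 114000000 (52.1% and 30.7%). None of the 5 lay in the middle segment.

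By the higher value of the lists, which is that of list 1, the sparsest windows were the 3 nearest the centromere. Of the window from 19000001 to 20000000 only 9.22% lay under peaks of list 1 and 3.31% under those of list 2. The window from 20000001 to 21000000 reached 19% and 9.72%, and the one from 21000001 to 22000000 reached 20.3% and 8.20%. They adjoin the dense windows at 22 and 23 Mb, so coverage differed more within the first 5 Mb than anywhere in the middle segment. The other sparsest windows began at 82000001 (20.6% and 4.79%) and, in the middle segment, at 70000001 (23% and 5.96%). By list 2 alone the order differed: after the first window, the lowest shares were 4.58% from 67000001, in the middle segment, 4.79% from 82000001 and 4.83% from 102000001, all lower than the windows at 20 and 21 Mb. The longest stretches free of peaks in both lists were 210 kb from 19247949 to 19457657 and 189 kb from 82073820 to 82262994.

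The widest peaks of both lists lay in the distal segment. In list 1 they were 109 kb from 95090570 to 95199741, with a fold of 2.19, 84.8 kb from 112764867 to 112849617 (fold 2.30) and 81.4 kb from 112632550 to 112713992 (fold 2.40). Peaks of list 2 covered 84.9%, 82.1% and 84.3% of them. In list 2 the widest were 64.5 kb from 112508800 to 112573270 (fold 2.79), 42.7 kb from 112807313 to 112849978 (fold 2.80) and 33.6 kb from 113053600 to 113087216 (fold 3.20), of which list 1 covered 98.0%, 99.2% and 100%. The widest peaks of other chromosomes reached 393 kb in list 1 and 255 kb in list 2.

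Strong peaks were rare, and the strongest differed between the lists. On chromosome 13, 12 peaks of list 1 had a q-value of 0.05 or less, 0.0903% of its peaks against 0.190% over the series, as did 69 of list 2, 0.850% against 2.07%. At the stricter limit, a −log10 q of 2 or more, list 1 had 1 peak, against 0.0419% of all its peaks, and list 2 had 4, against 0.253%. Their covered share was 0.00655 and 0.0967 times that of the other chromosomes. In list 1 this value rests on the peak of highest fold, 316 bp wide, in the stretch between 32 and 33 Mb described below. The segments differ in their number of peaks. The 12 of list 1 were 0 of 3024 peaks in the middle segment, 9 of 4388 in the proximal and 3 of 5874 in the distal one. The 69 of list 2 were 6 of 1529 peaks in the middle segment, 15 of 3156 in the proximal and 48 of 3428 in the distal one. In list 2 the highest folds were 3.69, from 114309556 to 114321953, 3.62, from 93491941 to 93494717, and 3.51, from 94897353 to 94899264, and list 1 had a peak with a fold of 2.76, 2.41 and 3.03 at these places. In list 1 the 7 highest folds, up to 4.05, all lay within 80.3 kb between 32 and 33 Mb. These 7 peaks were 316 to 5299 bp wide, and whether their folds reflect H3K9me3 was not tested. This stretch lies in the proximal segment. It held 8 of the 12 peaks with a q-value at or under 0.05, which left 4 on the rest of the chromosome, 3 of these in the distal segment. The 12 peaks of list 2 in the same stretch had a highest fold of 2.45, and none had a q-value at or under 0.05. The stretch was singled out after its values had been seen.

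The lists ranked the windows of chromosome 13 much alike, though less so than over the series, and shared fewer of their peaks there. Across the 96 windows Spearman's rho was 0.914 and Pearson's r was 0.893, descriptions over windows of 1 chromosome that share both lists and are not independent samples. Over all windows of the series they were 0.962 and 0.939, and rho was 0.945 on chromosome 4 and 0.928 on chromosome 18. Of the peaks of list 1, 5467 shared at least 1 bp with list 2, which was 41.1% (Wilson 95% interval 40.3 to 42.0%) against 50.8% over the series. Of the peaks of list 2, 6831 shared at least 1 bp with list 1, which was 84.2% (83.4 to 85.0%) against 90.1%. These intervals hold counting error alone. Both lists covered 11.5 Mb in common, and the Jaccard index of covered bases, the shared length over the length covered in either list, was 0.295 on chromosome 13 and 0.464 over the series. These shares turned with the limit of list 1: held to the lowest −log10 p that list 2 contains, 63.7% of its peaks had a partner, against 14.6% of those of list 2. With at least 50% of each peak shared, 10.8% and 17.7% had one. Partner shares and the Jaccard index also depend on covered share and peak width, both lower on chromosome 13 than elsewhere. How far these go into the contrasts with the series was not tested. The folds of the 7185 overlapping pairs had a rho of 0.237, over pairs in which a wide peak can occur more than once.

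By shared peaks and bases, agreement was lowest in the middle segment, but not by the correlation over its windows. Spearman's rho and Pearson's r were 0.923 and 0.959 in the middle segment. They were 0.954 and 0.913 in the proximal and 0.901 and 0.917 in the distal segment. In the middle segment a partner in list 2 was found for 34.2% of list 1 peaks, against 48.4% in the proximal and 39.3% in the distal segment. For list 2 the shares were 78.1% in the middle, 88.1% in the proximal and 83.3% in the distal segment. The Jaccard index was 0.203 in the middle segment, 0.329 in the proximal and 0.303 in the distal one. The share of peaks with a partner went with peak width. Since 1 bp is enough for a partner, a wider peak meets one more readily. These shares are therefore no measure of agreement by themselves. Peaks of list 1 under 700 bp had a partner in 12.1% of cases, those from 700 bp to 10 kb in 47.6% and those of at least 10 kb in 98.5%. In list 2 the shares were 67.3%, 91.2% and 100%, the last over 72 peaks. Peaks under 700 bp made up 35.1% of those of the middle segment in list 2, 27.1% of the proximal and 29.2% of the distal one. In list 1 the middle and distal segments were alike in this, at 24.5% and 24.2%, with 21.4% in the proximal segment. Among list 2 peaks under 700 bp, the share with a partner still differed by segment, at 62.9% in the middle, 71.8% in the proximal and 65.7% in the distal segment. Covered share also differed between the segments, and how far each of these goes into the agreement was not tested.

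**Figure D4:**
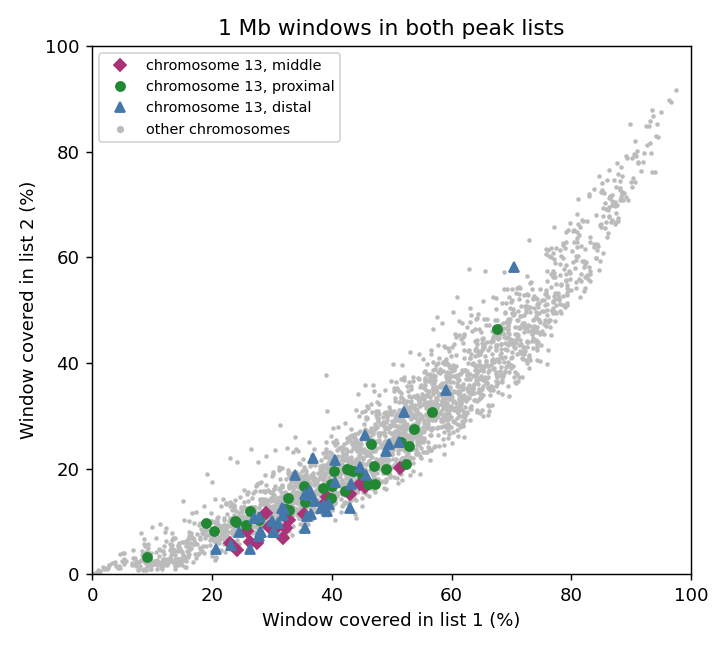
Covered share of 1 Mb windows in percent in list 1 (x axis) and list 2 (y axis). Diamonds, circles and triangles are windows of the middle, proximal and distal segments of chromosome 13, and grey points are those of the other chromosomes. Windows of chromosome 13 fill the lower part of the cloud, up to 70.5% and 58.1%, and those of the middle segment reach at most 51.3% and 20.2%.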

How the data were processed

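H3K9me3 chromatin immunoprecipitation and input libraries were made from 4 samples of U2OS cells. bcl2fastq 2.17, Trim Galore 0.6.7, Bowtie2 2.5.0, MACS2 2.2.7.1 and hg19 are named in the submitters' processing notes, with no role or order. For the settings of the peak caller and the use of the input, the sources used here give nothing. The deposited fold enrichment is a ratio over the background of the peak caller, and the deposited −log10 p and −log10 q belong to each peak. The files hold no read counts, so depth is unknown. From them were computed covered bases, full 1 Mb windows (those with a peak in either list), peak widths, overlaps of at least 1 bp and domains of peaks less than 10 kb apart. A peak belongs to the segment of its midpoint. No correction was made for DNA copy number or for bases that reads cannot be aligned to. Coordinates are 1-based. Windows named are the 5 densest by the lower and the 5 sparsest by the higher value of the lists. Peaks named are the 3 widest and the 3 of highest fold of each list, those of list 1 by fold being placed to 1 Mb only. Gene names come from RefSeq (GRCh38.p14) and their places from general knowledge, so no gene was given a value. The members, segments and comparisons were chosen with earlier results of these data known. The functions were tested on simulated data. Tools were matplotlib 3.10.9, scipy 1.17.1, pandas 2.3.3, numpy 2.4.6 and Python 3.11.15.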

Additional observations from a re-analysis of the deposited data

How the results depend on the processing

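No paired analysis was possible because neither list was given to a sample, and no replicate was left out for that reason. A value within 1.1 times the reported one, or within the Wilson interval of a share of peaks, was counted as unmoved, which held for 34 of 85 recomputed values. The middle segment stayed under both others in covered share in each setting that gave a value. At a −log10 q of 2 or more, that order rests on 1 peak in list 1 and 4 in list 2. These are too few to compare segments. The limit on list 1 by the p-values of list 2 in the segments, the borders at 60 and 73 Mb, and spans from position 1 were chosen after seeing the data. The causes of these shifts were not tested.

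At a −log10 q of 2 or more, chromosome 13 kept only 1 peak in list 1 and 4 in list 2, which covered 0.000329% and 0.0196% of it, 0.00655 and 0.0967 times the share of the other chromosomes. The ratio of middle to proximal was then 0 in both lists, and that of middle to distal was 0 in list 2 and had no value in list 1, where the distal segment kept no peak. With the peaks above the median fold of each list, the covered shares were 21.9% and 8.07%, the ratios to the other chromosomes 0.599 and 0.417, those of middle to proximal 0.606 and 0.465, and those of middle to distal 0.736 and 0.501. Median widths of middle over proximal were then 0.646 and 0.628, those of middle over distal 0.793 and 0.732, shares of peaks with a partner 33.1% and 67.6%, and the Jaccard index 0.254. Bases in both lists covered 12% of the chromosome, with ratios of 0.550 for middle to proximal and 0.628 for middle to distal. With list 1 held to the lowest −log10 p in list 2, which left 1340 of its peaks, middle to proximal was 0.454 and middle to distal 0.423 in list 1, the shares with a partner were 63.7% of list 1 and 14.6% of list 2, and the Jaccard index was 0.188.

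With borders at 60 and 73 Mb, middle to proximal was 0.744 and 0.489, and middle to distal 0.799 and 0.546. Medians over 100 kb windows gave 0.795 for middle to proximal in list 1 and 0.804 for middle to distal in list 2. Middle to distal in list 2 was 0.820 by medians over 1 Mb windows and 0.817 without 5 Mb at each end. With spans from position 1, the ratios to the other chromosomes were 0.686 and 0.499. A reciprocal overlap of 50% left 10.8% of list 1 and 17.7% of list 2 with a partner. The order of widths in list 1 turned when peaks less than 10 kb apart were joined, with 2.69 for middle over proximal and 1.36 for middle over distal. In list 2 middle over proximal was then 0.677. Joined at less than 3 kb, middle over proximal was 0.892 in list 1 and 0.552 in list 2, and middle over distal 0.763 in list 2.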

Other observations

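On chromosome 13, joining of peaks with gaps under 10 kb gave 1141 domains in list 1 and 2263 in list 2. The longest of both lists lay in the same part of the proximal segment, at 1228 kb from 22257662 to 23485776 in list 1, 74.9% of it under peaks, and at 567 kb from 22444300 to 23010933 in list 2, 62% under peaks. The second longest were 1058 kb from 53289969 to 54348003 in list 1, which crosses the border of the middle segment, and 430 kb from 112504177 to 112934270 in list 2, of which 83.0% was under peaks.

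The middle segment looked different in the lists once peaks were joined. The median domain there was 36.0 kb long in list 1, against 13.3 kb in the proximal and 26.4 kb in the distal segment, and 5.82 kb in list 2, against 8.59 and 6.68 kb. From 1 peak to the next, the median gap was 2656 bp in the middle segment of list 1, against 2424 and 2621 bp, and 6496 bp in list 2, against 3902 and 5122 bp. Of the windows of 100 kb, 0 of 190 in the middle segment were free of list 1 peaks, against 2 of 350 in the proximal and 3 of 421 in the distal one. In list 2 these numbers were 2, 11 and 8.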
